A study of Rattus norvegicus with 4 samples.

Results

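The genes described here are the nuclear-encoded subunits of the last 3 complexes of mitochondrial oxidative phosphorylation: complex III, complex IV and ATP synthase, with cytochrome c, the carrier between the first 2. They were taken by symbol, as every gene whose symbol begins with Uqcr, with Cox followed by a digit from 4 to 8, or with Atp5, plus Cyc1 and Cycs. The rule found 38 rows for 37 gene identifiers among 14137 in the table: 7 of complex III, 1 for cytochrome c, 14 of complex IV and 15 of ATP synthase. Subunits without a row under such a symbol, among them Atp5mc1, Atp5pb, Cox8a and Cox8b, are not part of the counts below. Complex III passes electrons from ubiquinol to cytochrome c, complex IV passes them from cytochrome c to oxygen, and both pump protons whose return flow turns ATP synthase. Each complex joins products of the nucleus to a few products of the mitochondrial genome, and the heart, which works almost entirely on respiration, carries its own isoforms of several complex IV subunits.

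RNA was sequenced from neonatal rat ventricular cardiomyocytes, a primary culture of heart muscle cells. Cells carried a lentivirus with a control shRNA (labelled WT) or a CRAT shRNA (labelled KO, although a hairpin depletes a transcript and does not delete the gene), and were harvested on day 5. Each group has 2 libraries, named here control replicates 1 and 2 and Crat hairpin replicates 1 and 2; nothing in the labels ties them to separate animals or cultures, so p-values measure the spread between these libraries only. The question posed by the design is what changes when Crat, the mitochondrial carnitine acetyltransferase, is depleted. Values are RPM, reads scaled to a library total of 1000000 and not divided by gene length. The libraries hold 23680064 and 1321735 reads (control) and 321516 and 1622998 reads (Crat hairpin), so that Crat hairpin replicate 1 is the shallowest by far. Among the tested subunits that library holds from 0 to 926 reads per gene, with a median of 46.

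The controls held 148 and 156 RPM of Crat itself, and the depleted cells 24.9 and 19.7 RPM. The log2 fold change was -2.72 ± 0.19 (SE, as for every ± value here, with 2 libraries against 2; limma adjusted p = 7.3e-06). Both depleted libraries lay far below both controls, as the labels state.

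Most of the subunit genes were lower in the Crat hairpin libraries, and none was called higher. Of the 37 genes, 36 reached the mean of 1 RPM needed for testing, and 20 of these fell at a limma adjusted p below 0.05, a call that 6.36% of all 12949 tested genes received. No subunit passed the test upward, where 12.6% of all genes did; at an unadjusted limma p below 0.05 the count upward was also 0, and edgeR, DESeq2 and limma voom also called 0. The median log2 fold change was -0.41 over the 36 genes and 0.15 over all tested genes. Both Crat hairpin libraries lay below both controls for 28 of the 36, against 21.7% of all genes, and above both controls for 2, against 39.1%. The shares of all genes include genes down to a mean of 1 RPM. Subunit means ran from 85.9 to 3039 RPM, apart from Atp5f1e, Cox4i2 and Cox7a1, which lay below that range. A comparison with genes of like level was not made. Summed, the genes took up 1.28% and 1.24% of control reads, against 1.004% and 1.008% under the Crat hairpin.

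The count depends on how the spread is estimated. With no variance trend limma called 0 of the 36 (14 at an unadjusted p below 0.05; smallest adjusted p = 0.0712). Without control replicate 1 it called 3, and without control replicate 2 it also called 3, in both cases Uqcrh, Cox5b and Atp5mc3; without Crat hairpin replicate 1 it called 25. The scale moves it too: median-of-ratios scaling, which brings the median of all genes from 0.15 to -0.032, gave 26 lower and 0 higher (9.68% and 8.06% of all genes). On the recovered reads edgeR gave 31 lower (15.9% of all genes; 13.7% higher) and DESeq2 24 (6.7%; 5.78% higher). All 20 genes called here were also called lower under that scaling and by edgeR. Over all genes, 823 were lower and 1631 higher in the deposited scaling, and 1254 and 1044 under median-of-ratios scaling. An adjusted p below 0.05 stands beside 21 of the 37 genes, all lower, in the authors' deposited table, where 5.6% of all genes are lower and 4.91% higher. Of the 20 genes called here, 19 are among these, all but Atp5me (authors' adjusted p = 0.0645).

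**Figure D1:**
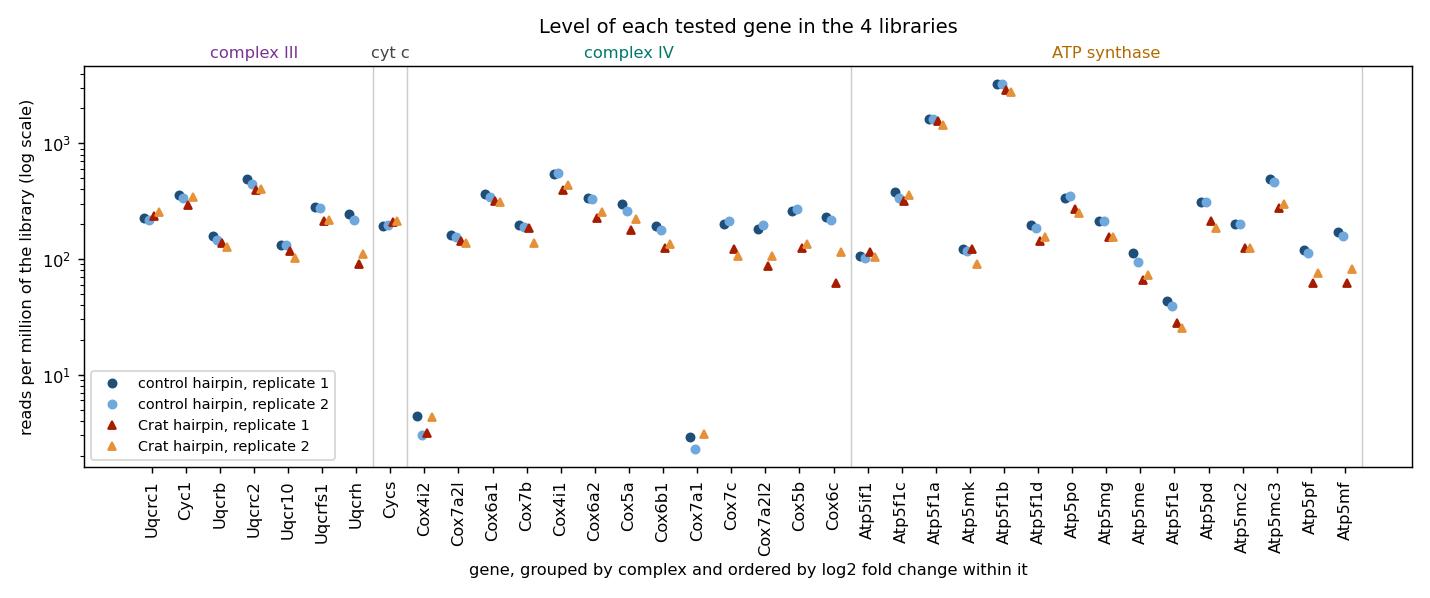
RPM (vertical, log scale) of each of the 36 tested genes in the 4 libraries; circles are control and triangles Crat hairpin libraries, and the value of 0 for Cox7a1 in Crat hairpin replicate 1 is not drawn. For Uqcrh, Cox5b, Cox6c and Atp5mf the triangles lie well below the circles, while for Cycs and Atp5f1c the symbols nearly coincide.

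Start-site sequences are shown for 4 genes that fell and for Cycs, which did not pass. They are given because nuclear respiratory chain genes are known targets of shared transcription factors. The genes shown were named by hand and do not represent the others. Atp5f1a, Atp5f1e, Atp5mk and Uqcrc2, which had no call, also hold matches, and counts over all windows follow the lines. RefSeq (build GRCr8, not the mRatBN7.2 build of the expression data) gave a window of 250 bases before to 50 bases after the start for 31 of the 37 genes. Each line gives the 150 bases just before the start, 5′ to 3′ on the gene's strand, with matches to 3 motifs in capitals. The motifs, searched on both strands, were the palindromic core site of nuclear respiratory factor 1 (NRF1; its letters are the capitals in the Atp5mc2 line), CCGGAAG (the ETS family, which includes the Gabpa product) and AAGGTCA (oestrogen-related receptors); no 2 matches overlap in the lines shown.
Uqcrh, chr5:134790883-134791032, minus strand: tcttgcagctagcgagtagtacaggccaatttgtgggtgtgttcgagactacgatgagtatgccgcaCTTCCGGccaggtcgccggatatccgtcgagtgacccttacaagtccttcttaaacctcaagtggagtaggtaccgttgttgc
Cox5b, chr9:46417687-46417836, plus strand: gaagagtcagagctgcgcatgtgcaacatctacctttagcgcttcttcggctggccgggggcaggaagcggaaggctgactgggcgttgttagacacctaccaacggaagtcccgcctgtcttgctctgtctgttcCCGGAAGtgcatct
Atp5mc2, chr7:135678219-135678368, minus strand: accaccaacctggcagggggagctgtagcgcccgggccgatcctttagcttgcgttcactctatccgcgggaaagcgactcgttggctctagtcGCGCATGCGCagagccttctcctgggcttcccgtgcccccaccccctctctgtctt
Atp5mc3, chr3:79220665-79220814, minus strand: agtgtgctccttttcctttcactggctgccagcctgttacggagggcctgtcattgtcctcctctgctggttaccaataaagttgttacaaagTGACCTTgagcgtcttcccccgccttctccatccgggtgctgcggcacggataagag
Cycs, chr4:80984768-80984917, minus strand: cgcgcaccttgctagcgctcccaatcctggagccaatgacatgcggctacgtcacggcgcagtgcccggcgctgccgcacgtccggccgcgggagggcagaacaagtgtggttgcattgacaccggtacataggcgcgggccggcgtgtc
Uqcrh and Cox5b hold the ETS motif, Atp5mc2 the NRF1 motif and Atp5mc3 the oestrogen-related receptor motif, while the stretch shown for Cycs holds none of these letters. Over the whole windows the ETS motif stood in 10 of the 31 genes and in 8.75% of all 33469 windows, the NRF1 motif in 3 (Atp5mc2, Atp5me and Atp5po) and 0.852%, and the receptor motif in 4 and 4.61%. Genes that fell and genes without a call both carried matches: the ETS motif stood in 6 of 18 and 3 of 12, the NRF1 motif in 3 and 0, and the receptor motif in 2 and 2; the remaining matched gene, the untested Cox7a2, holds an ETS match. A match describes these letters only and does not show binding. Only exact letters were searched, so the lack of a match, as for Cycs, does not show that a site is absent.

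In complex III 2 of the 7 subunits with a row fell. Uqcrh, the acidic hinge protein that helps cytochrome c dock, stood at 244 and 218 RPM in the controls and at 90.2 and 110 under the Crat hairpin. It fell by 1.21 ± 0.14 on the log2 scale (limma adjusted p = 0.000219), and its values did not overlap between groups. Uqcrfs1, the Rieske iron-sulfur protein that takes the first electron from ubiquinol, stood at 284 and 276 RPM against 211 and 218 RPM. It fell by 0.38 ± 0.09 (limma adjusted p = 0.0193), with a value of -0.57 under median-of-ratios scaling. Median-of-ratios scaling called 4 complex III genes lower and edgeR 6.

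The other 5 complex III genes did not pass the test. Uqcrc2, core protein 2, stood at 488 and 446 RPM against 398 and 401 RPM (log2 fold change -0.22 ± 0.08, limma adjusted p = 0.0856). It was called lower under median-of-ratios scaling (-0.42, adjusted p = 0.00595), by edgeR and DESeq2, and in the authors' deposited table (adjusted p = 0.0080). Cyc1, the cytochrome c1 that hands electrons on to cytochrome c, stood at 356 and 334 RPM against 295 and 343 RPM, with overlapping groups (log2 fold change -0.12 ± 0.098, limma adjusted p = 0.464). The small subunits Uqcr10 and Uqcrb had log2 fold changes of -0.26 and -0.20; under median-of-ratios scaling these were -0.45 and -0.39, with adjusted p values of 0.0445 and 0.0562. Uqcrc1, core protein 1, was at 224 and 218 RPM in the controls and at 236 and 254 RPM under the Crat hairpin. Its log2 fold change was 0.15 ± 0.10 (limma adjusted p = 0.340), equal to the median of all genes, and it was -0.044 under median-of-ratios scaling.

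The reads of Uqcrh and Uqcrc1 were also set against each other, a pair chosen after their values were seen. Uqcrh supplied 52.2% of the pair's reads (95% Clopper-Pearson interval 51.2 to 53.1) in control replicate 1 and 50% (45.8 to 54.2) in control replicate 2. In the Crat hairpin libraries it supplied 27.6% (19.3 to 37.2) and 30.2% (26.5 to 34.1). These intervals and those below cover counting error only. The shares of the groups did not overlap, but 2 libraries against 2 cannot go below p = 0.333 in a two-sided exact permutation test.

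Cytochrome c was not called in either direction. Cycs, the somatic cytochrome c, which also triggers apoptosis once released from mitochondria, stood at 193 and 198 RPM in the controls and at 208 and 214 RPM under the Crat hairpin. Both Crat hairpin libraries were slightly above both controls (log2 fold change 0.11 ± 0.10, limma adjusted p = 0.502), and under median-of-ratios scaling the value was -0.083. The identifier of Cycs carries a second symbol, and RefSeq names 7 pseudogenes after it, so part of its reads may come from copies.

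In complex IV 8 of 13 tested genes fell. Cox6c, a small membrane subunit, stood at 233 and 219 RPM in the controls and at 62.2 and 114 under the Crat hairpin, on 20 reads in replicate 1. It fell by 1.41 ± 0.23 (limma adjusted p = 0.00233); the log2 fold change was -0.98 without Crat hairpin replicate 1 and -1.84 without replicate 2. Cox6c had the lowest value of all the subunits on the deposited scale, but Uqcrh was lower than Cox6c in edgeR (-1.37 against -1.34), in limma voom (-1.19 against -1.17) and without Crat hairpin replicate 1 (-1.07 against -0.98). Cox5b, a zinc-binding subunit on the matrix side, stood at 260 and 268 RPM against 124 and 134 RPM. It fell by 1.03 ± 0.11 (limma adjusted p = 0.000136), the smallest adjusted p of the 36. Cox7c, another small membrane subunit, stood at 202 and 215 RPM against 121 and 105 RPM and fell by 0.88 ± 0.12 (limma adjusted p = 0.000884). For all 3 genes both Crat hairpin libraries lay below both controls.

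Further complex IV subunits fell by less. Cox4i1, the common form of subunit IV, stood at 547 and 555 RPM against 392 and 439 RPM and fell by 0.41 ± 0.08 (limma adjusted p = 0.00676; -0.61 under TMM scaling). Cox5a, which forms the matrix face with Cox5b's product, fell by 0.48 ± 0.13 (limma adjusted p = 0.0286, and -0.32 without Crat hairpin replicate 1). Its call was lost with no filter on low values (limma adjusted p = 0.0511). Cox6b1, on the intermembrane side near the cytochrome c site, fell by 0.53 ± 0.12, from 193 and 179 RPM to 124 and 134 RPM. Cox7b stood at 198 and 189 RPM against 184 and 139 RPM and did not pass (log2 fold change -0.28, limma adjusted p = 0.219). Its value was -0.48 without Crat hairpin replicate 1 and -0.076 without replicate 2, and median-of-ratios scaling (-0.47, adjusted p = 0.0474), edgeR and DESeq2 called it lower. Cox7a2l, a relative of subunit VIIa that joins complexes III and IV into supercomplexes, stood at 161 and 156 RPM against 143 and 138 RPM and did not pass either (log2 fold change -0.17, limma adjusted p = 0.344).

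Subunit VIIa is the uncertain case. The row named Cox7a2l2 stood at 182 and 195 RPM in the controls and at 87.1 and 106 under the Crat hairpin, and fell by 0.97 ± 0.14 (limma adjusted p = 0.000933). The identifier that carries Cox7a2, the common form, also carries the name Cox7a2l2 on a second row and holds 0.802 RPM in control replicate 1 and no read elsewhere; it was not tested. Which copy the reads came from was not tested, and the fall is given for the row, not for one gene. The heart form Cox7a1 was nearly undetected, at 2.91, 2.27, 0 and 3.08 RPM, and no change could be read at this depth (limma adjusted p = 0.575).

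**Figure D2:**
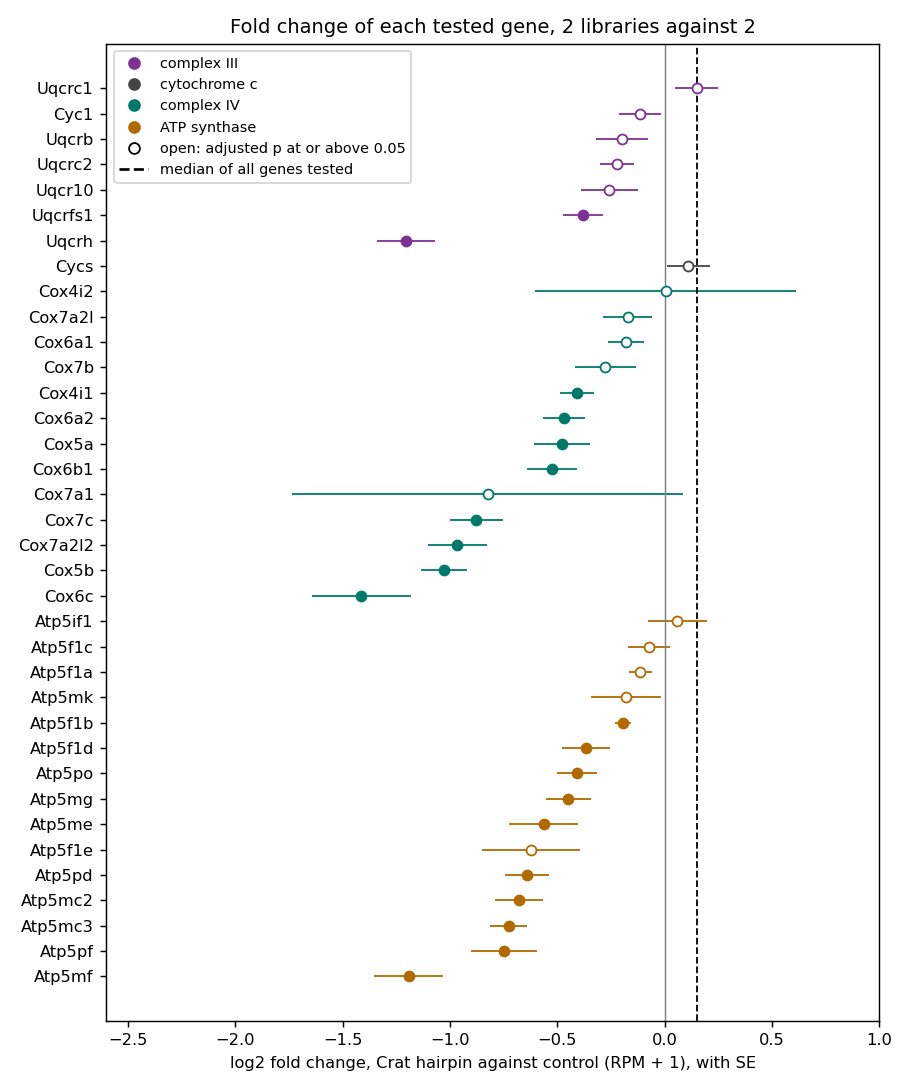
Log2 fold change of each tested gene (horizontal, with SE, 2 libraries against 2), coloured by complex and filled where the limma adjusted p is below 0.05. The dashed line is the median of all genes (0.15). Values in every complex reach beyond -1, with Uqcrh, Cox6c and Atp5mf as the lowest of complex III, complex IV and ATP synthase.

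Isoform pairs were compared by their share of reads. The level of a share and a difference in points depend on transcript length, while the direction of a change between groups does not. For subunit VIa, the heart and muscle form Cox6a2 stood at 334 and 330 RPM in the controls and at 224 and 256 under the Crat hairpin. It fell by 0.47 ± 0.10 (limma adjusted p = 0.00929). The common form Cox6a1 stood at 362 and 343 RPM against 314 and 308 RPM (log2 fold change -0.18 ± 0.08, limma adjusted p = 0.180). Cox6a1 too was called lower under median-of-ratios scaling (-0.37, adjusted p = 0.0136), by edgeR and by DESeq2. Cox6a2 supplied 48.0% (47.2 to 48.7) and 49.0% (45.7 to 52.3) of the reads of both forms in the controls, and 41.6% (34.2 to 49.3) and 45.4% (42.2 to 48.7) in the Crat hairpin libraries. The means are 48.5% and 43.5%, a difference of -4.96 points, and the groups do not overlap, yet the intervals of single libraries do.

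For subunit IV the shares overlapped. Cox4i2, the form known from lung and from low oxygen, stood at 4.39 and 3.03 RPM in the controls and at 3.11 and 4.31 under the Crat hairpin, 1 read of it in replicate 1. Its share of the subunit IV reads was 0.797% and 0.542% in the controls and 0.787% and 0.972% in the Crat hairpin libraries, with overlapping groups.

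In ATP synthase 10 of 15 genes fell, and differences between its parts were not tested. In F1, the head that makes ATP, Atp5f1b (beta, the catalytic subunit) stood at 3260 and 3228 RPM in the controls and at 2880 and 2790 under the Crat hairpin. It fell by 0.19 ± 0.04 (limma adjusted p = 0.00704), the smallest fall among the 20; the value was -0.39 under median-of-ratios scaling. Atp5f1a (alpha) stood at 1637 and 1608 RPM against 1558 and 1442 RPM and did not pass (log2 fold change -0.11, limma adjusted p = 0.181). It was called lower under median-of-ratios scaling (-0.31, adjusted p = 0.00323), by edgeR and DESeq2, and in the authors' deposited table (adjusted p = 0.000482). Atp5f1d (delta) fell by 0.37 with a limma adjusted p of 0.0481, just inside the threshold (-0.56 and 0.00712 under median-of-ratios scaling). Its call was lost with the replicate block (adjusted p = 0.0559), a pseudocount of 0.5 (0.0503) and no filter on low values (0.0514). Atp5f1c (gamma, the rotating shaft) had a log2 fold change of -0.073, on an identifier that also carries the symbol Taf3, and Atp5f1e (epsilon) one of -0.62 on 9 reads in Crat hairpin replicate 1 (limma adjusted p = 0.0907; 0.0361 under median-of-ratios scaling). Of the 5 F1 genes 2 fell in limma, 4 under median-of-ratios scaling and all 5 in edgeR.

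Subunit c forms the proton-driven ring, and both of its genes with a row fell. A further subunit c gene, Atp5mc1, had no row under that symbol, so the balance below leaves it out. Atp5mc3 stood at 495 and 458 RPM in the controls and at 277 and 299 under the Crat hairpin (log2 fold change -0.73 ± 0.09, limma adjusted p = 0.000316). Atp5mc2 stood at 200 and 202 RPM against 124 and 126 RPM (log2 fold change -0.68 ± 0.11, limma adjusted p = 0.00225). Atp5mc2 and Atp5mc3 encode the same mature protein with different import sequences, and their balance did not shift beyond the spread. Atp5mc3 supplied 71.2% and 69.4% of their joint reads in the controls and 69.0% and 70.4% in the Crat hairpin libraries.

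Of the peripheral stalk, which keeps the head from turning with the ring, all 3 genes with a row fell. Atp5pf, coupling factor 6, stood at 118 and 113 RPM against 62.2 and 75.2 RPM and fell by 0.75 ± 0.16 (limma adjusted p = 0.00864). Atp5pd (subunit d) fell by 0.64 and Atp5po, the OSCP that caps the head, by 0.41 (-0.61 under TMM scaling). Among the membrane accessory subunits, which help ATP synthase dimers bend the cristae, 3 of 4 fell. Atp5mf (subunit f) stood at 171 and 158 RPM in the controls and at 62.2 and 81.9 under the Crat hairpin, and fell by 1.19 ± 0.16 (limma adjusted p = 0.000679). Atp5me fell by 0.56 on 21 reads in Crat hairpin replicate 1 (limma adjusted p = 0.0362), but did not pass in the authors' deposited table (adjusted p = 0.0645). Atp5mg fell by 0.45. Atp5mk, on an identifier that also carries a second symbol, had a log2 fold change of -0.18 with overlapping groups. Atp5if1, the inhibitor that stops ATP synthase from running backwards, stood at 107 and 103 RPM against 115 and 104 RPM (log2 fold change 0.059, limma adjusted p = 0.803; -0.13 under median-of-ratios scaling). The median log2 fold change was -0.19 for the 5 F1 genes, -0.70 for the 2 subunit c genes, -0.64 for the stalk and -0.51 for the accessory subunits.

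Further pairs were chosen after their values were seen. Atp5mf supplied 4.98% (4.83 to 5.13) and 4.67% (4.07 to 5.33) of the reads of Atp5mf and Atp5f1b in the controls. In the Crat hairpin libraries it supplied 2.11% (1.30 to 3.25) and 2.85% (2.39 to 3.37), with no overlap between groups. In complex IV, likewise chosen, Cox6c supplied 39.1% and 39.0% of the reads of Cox6c and Cox6a1 in the controls. Under the Crat hairpin it supplied 16.5% (10.4 to 24.4) and 27.0% (23.7 to 30.5). The pair in complex III so chosen moved less. Uqcrfs1 supplied 44.3% and 45.3% of the reads of Uqcrfs1 and Cyc1 in the controls. Under the Crat hairpin it supplied 41.7% (34.1 to 49.7) and 38.9% (35.7 to 42.2), and the interval of replicate 1 covers both control shares.

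**Figure D3:**
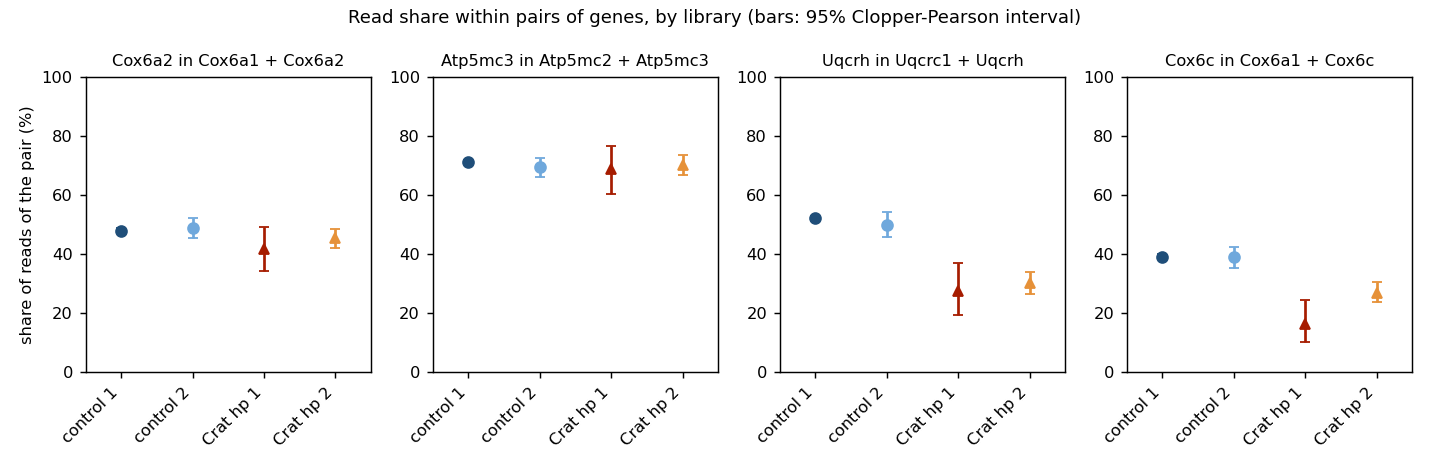
Share of the reads of a pair of genes that came from 1 of them (vertical, percent) in each library, with 95% Clopper-Pearson intervals for counting error. Atp5mc3 stays between 69.0% and 71.2% in all 4 libraries, Cox6a2 is lower in both Crat hairpin libraries, and Uqcrh and Cox6c lie lower by a wide margin. The pairs of Atp5mc3 and Cox6a2 were planned. Those of Uqcrh and Cox6c were chosen after their values were seen, so the width of their shift reflects that choice.

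Many of these genes have near copies in the rat genome. RefSeq names 58 pseudogenes after 23 of the 37 genes, 12 of the 20 that fell and 10 of the 16 tested genes without a call. Atp5mg has 8, Atp5mc2, Atp5f1c and Atp5pf 4 each, and Cox6c, Cox7c and Atp5mf 3 each, while none is named after Uqcrh, Atp5mc3 or Cox6a2. No source used here says how reads were shared between a gene and its copies, so the values of genes with copies are uncertain to that extent. Only pseudogenes named after a gene were counted, so genes with none may still have copies under other names.

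All 6 mitochondrially encoded partners of the same complexes fell (6.36% of all genes were called lower), with a median log2 fold change of -1.61. The values ran from -0.89 for COX1 of complex IV to -2.30 for CYTB of complex III, with ATP8 and ATP6 of ATP synthase at -1.81 and -1.69; the difference from the nuclear subunits was not tested. Ndufa4, named as a complex I subunit but found in complex IV, is outside the rule for the genes described here. It stood at 197 and 194 RPM against 90.2 and 70.2 RPM and fell by 1.28 ± 0.15 (limma adjusted p = 0.000256).

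Of 36 tested factors that build the complexes, 0 fell and 5 rose in limma, with a median log2 fold change of 0.006. The share that rose is near the 12.6% of all genes called higher, and 6.36% of all genes were called lower. At median-of-ratios scaling 0 fell and 3 rose, against 9.68% and 8.06% of all genes. In edgeR 4 fell and 5 rose, against 15.9% and 13.7% of all genes. Low depth limits these calls. Uqcc3 (-0.97), Atpaf2 (-0.79) and Coa7 (0.86) had no limma call, on 1, 4 and 7 reads in Crat hairpin replicate 1. Tmem70, which inserts subunit c into ATP synthase, stood at 10.7 and 4.54 RPM in the controls and at 31.1 and 33.9 under the Crat hairpin (log2 fold change 2.06 ± 0.41, limma adjusted p = 0.00653). Sco1, a copper chaperone of complex IV, rose by 1.23 ± 0.28 and Cox15, which makes the haem A of complex IV, by 0.91 ± 0.19; in the authors' deposited table their adjusted p values are 0.210 and 0.177. Atpaf1, a chaperone of F1 beta, and the insertase Oxa1l had log2 fold changes of 0.91 and 0.51, past the threshold in limma but not under median-of-ratios scaling (adjusted p = 0.0822 and 0.183). No complex III factor passed in limma or edgeR; Uqcc1 stood at 46.9 and 43.1 RPM against 40.4 and 54.8 RPM (log2 fold change 0.065), and Ttc19 had one of -0.029.

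Around cytochrome c, 3 of 8 tested genes rose and 0 fell in limma, against 12.6% and 6.36% of all genes. Under median-of-ratios scaling 1 rose, against 8.06% of all genes. Hccs, which attaches haem to cytochrome c, had a log2 fold change of 0.76 ± 0.20 (limma adjusted p = 0.0261; 0.0837 under median-of-ratios scaling). Bak1, which opens the outer membrane for its release, stood at 81.1 and 71.9 RPM against 196 and 170 RPM and rose by 1.25 ± 0.14 (limma adjusted p = 0.000217). Bcl2l1, which opposes that release, had a log2 fold change of 0.54 (limma adjusted p = 0.0155; 0.0959 under median-of-ratios scaling).

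Among 16 regulators of respiratory chain genes, 2 rose and 1 fell in limma, shares close to the 12.6% and 6.36% of all genes called higher and lower. Gabpa, the DNA-binding part of the ETS factor named above, stood at 28.1 and 21.9 RPM in the controls and at 90.2 and 80.7 under the Crat hairpin, and rose by 1.74 ± 0.21 (limma adjusted p = 0.000333). Esrra, an oestrogen-related receptor, had a log2 fold change of 0.995 (limma adjusted p = 0.0324; 0.0745 under median-of-ratios scaling), and the muscle factor Mef2a fell by 0.43. The coactivator Ppargc1a stood at 24.7 and 18.2 RPM against 12.4 and 33.3 RPM, and Nrf1 at 21.1 and 25.7 RPM against 15.6 and 34.5 RPM; both groups overlap and neither passed.

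**Figure D4:**
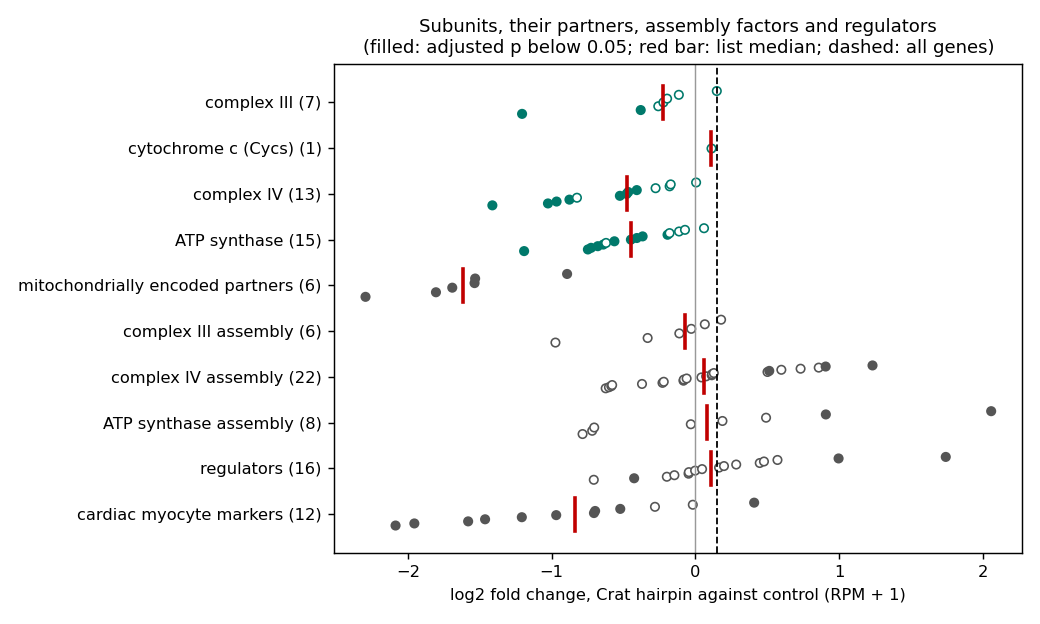
Log2 fold change (horizontal) of each tested gene of the subunits (green) and of related lists (grey), filled where the limma adjusted p is below 0.05, with list medians in red and the median of all genes dashed. The medians are -0.22 for complex III, -0.48 for complex IV and -0.45 for ATP synthase, against -1.61 for the mitochondrially encoded partners and -0.84 for myocyte markers, and the medians of the assembly lists lie between -0.071 and 0.078.

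Markers of the labelled cell type were abundant in all 4 libraries, and most moved in the same direction as the subunits. Of 12 tested cardiac myocyte markers 9 fell and 1 rose in limma, against 6.36% and 12.6% of all genes. Mybpc3 rose by 0.41, while Ryr2 (-0.019) and Csrp3 (-0.28) had no call. The 12 markers summed to 32727 and 33251 RPM in the controls and to 13909 and 14293 in the Crat hairpin libraries. Fibroblast markers summed to 31488 and 32955 RPM against 24064 and 24664 RPM (6 of 10 fell, 2 rose). That sum rests mostly on Col1a1, Col1a2, Col3a1 and Fn1, and fibroblast markers did not move alike. Pdgfra rose from 112 and 99.9 RPM to 488 and 426 RPM, and Dcn from 143 and 117 RPM to 252 and 314 RPM. Smooth muscle and pericyte markers summed to 5332 and 5442 RPM against 1947 and 1902 RPM (6 of 8 fell, 1 rose, which median-of-ratios scaling did not call). Endothelial markers (1 of 5 tested fell, 1 rose) summed to between 52.9 and 68.4 RPM in every library, with Vwf and Cdh5 at 0 in Crat hairpin replicate 1 and Vwf at 0 in replicate 2. Leukocyte markers summed to between 47.7 and 59.1 RPM, with Csf1r at 0 in Crat hairpin replicate 1. In bulk samples fewer cells of a type and less RNA per cell cannot be told apart, and the part of a change in cell types in the fall of the subunits was not tested.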

How the data were processed

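Gene expression was taken from 1 table that the authors deposited, which gives a value for every library beside group means and the authors' own p-value columns. The submitters' processing notes name kallisto, DESeq2 and the build mRatBN7.2; no source used here records filters or the summing of reads. Per the file headers the library values are TPM, but the deposited signal is RPM, without division by length: each value is a whole multiple of 1 step per library, 100% of values lie within 0.02 of a whole read number, and each identifier taken once sums to 1000000. The design had assumed a normalized unit, and the planned log-scale test was kept. The 14318 rows describe 14137 identifiers; 140 stand on several rows and were used once.

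The test was limma 3.58.1 (R 4.3.3) with its trend option, on log2(RPM + 1) of the 12949 genes whose mean reached 1 RPM, and Benjamini-Hochberg adjustment ran over all of them (threshold 0.05). Fold changes on this scale understate those of low genes. A chi-square test of reads gave 1.47 and 1.29 per degree of freedom within the control and Crat hairpin pairs, so each pair differed by more than counting error and was counted as 2 libraries. Counts recovered from the steps were also run in edgeR 4.0.16 and DESeq2 1.42.0, as alternatives. Genes named with values are, in each complex, the 4 largest changes past the threshold, the 2 highest means, Cyc1, Cycs and isoform families; others were added after their values were seen, among them Uqcrc1. The members and lists were chosen with earlier results of these data known. Listed genes without a matching symbol were not analysed here. The result of 1 further marker list is not reported here. Depth sets the precision: 1 read is worth 0.0422, 0.757, 3.11 and 0.616 RPM in the 4 libraries.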

Additional observations from a re-analysis of the deposited data

How the results depend on the processing

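The number of subunit genes lower stayed within 1.5 times of 20 under other pseudocounts, filters and scalings, limma voom, DESeq2 and the authors' deposited adjusted p; edgeR gave 31 and a fit with no variance trend 0. By complex, the fit with no variance trend gave 0 for complex III, complex IV and ATP synthase, and the complex III count of 2 became 4 under median-of-ratios and TMM scaling, 5 in limma voom and 6 in edgeR. With 1 library left out the counts ran from 3 to 25 for all subunits, 1 to 4 for complex III, 1 to 9 for complex IV and 1 to 13 for ATP synthase; the lone library left in an arm is then assumed to vary like the other group, and the lowest counts come without either control library. The count higher was 0 in every setting run, and Crat passed in each. The labels number the replicates alike and do not say whether they are pairs. The deviations of same-numbered libraries were uncorrelated (0.0061 over 12949 genes). Counting error in weakly expressed genes can hide a shared effect, so this value does not settle the question. The numbers are not taken as a pairing, and with the replicate block 19 subunits were lower.

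No called subunit changed direction in any setting. Over 573 values of single genes 59 lost a call, 46 gained one and 24 changed sign, none of these past the threshold. The sign changes under median-of-ratios scaling, TMM scaling, edgeR and DESeq2, in that order, were -0.13, -0.14, -0.21 and -0.16 for Atp5if1, -0.15, -0.16, -0.24 and -0.16 for Cox4i2, -0.083, -0.10, -0.076 and -0.074 for Cycs, and -0.044, -0.056, -0.037 and -0.030 for Uqcrc1; limma voom gave -0.0051 for Atp5if1. With 1 library left out the log2 fold changes ran from -0.16 to 0.015 for Atp5f1c, -0.012 to 0.13 for Atp5if1, -0.39 to 0.028 for Atp5mk, -0.21 to 0.21 for Cox4i2 and -1.84 to 0.19 for Cox7a1. Depth limits the weakly expressed isoforms most: Crat hairpin replicate 1 holds 1 read of Cox4i2 and 0 of Cox7a1.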
